A study of Rattus norvegicus with 9 samples.

Results

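The genes described here are 35 genes listed as members of the p53 pathway: regulators that act on p53, genes that p53 is known to switch on, and relatives of such genes. They were taken by gene name. Of the 35 names, 33 had a row in the deposited expression table of 34267 genes, and Bbc3 and Tnfrsf10b had no row under those symbols. Perp, a membrane protein of cell junctions that promotes apoptosis, was listed at 0 in all 9 libraries, where a count of 0 still allows 3 fragments, or 0.0988 to 0.117 FPKM at its length. FPKM is the number of sequenced fragments per kilobase of gene, scaled to the size of the library. The other 32 members passed the filter of at least 1 FPKM in at least 3 libraries and were tested among 13059 genes. Their mean over the 9 libraries ran from 1.41 FPKM for Fdxr to 171.3 FPKM for Phlda3.

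All samples were primary wild-type rat cultures of cartilage progenitor cells, taken from condylar cartilage, from which polyadenylated RNA was sequenced. P9 cells had been cultured to passage 9, which the series treats as a model of replicative senescence, the arrest that follows repeated division. FFSS cells were at passage 3 and had been put under flow fluid shear stress, in which liquid flowing over the cells pulls on them, and P3 cells were unsheared controls at passage 3. Each group had 3 libraries, the labels name no animals or separate cultures, and each p therefore measures only the spread between these libraries. The dose and the duration of the shear are not given in the sources used here.

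The protein p53 is a transcription factor that is kept scarce by Mdm2, the ubiquitin ligase that marks it for destruction. DNA damage, oncogene activity and other stresses free it from Mdm2, after which it binds response elements near its targets. Those targets stop the cell cycle, start apoptosis, restrain growth signalling or repair DNA, and Mdm2 is itself a target, so that the response limits itself. Many of these targets are also driven by other stress factors.

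Between 13264930 and 15323790 fragments per library were assigned to genes. The label of the cells was checked against markers. Thy1 (823 to 1196 FPKM in P9, 1296 to 1437 in FFSS and 824 to 949 in P3), Itgb1 and Cd44 were abundant in every library. Other listed progenitor markers were lower than these. Eng was at 23.3 to 35.7 FPKM in P9, 73.0 to 121 in FFSS and 53.6 to 62.9 in P3. Nt5e was at 3.24 to 4.91 FPKM in P9, 6.18 to 11.2 in FFSS and 6.61 to 6.95 in P3. Nes was at 0.952 to 1.79 FPKM in P9, 0.0677 to 0.220 in FFSS and 0.423 to 0.644 in P3. Of the cartilage genes, the proteoglycan Acan was at 499 to 609 FPKM in P9, 29.3 to 48.2 FPKM in FFSS and 122 to 135 FPKM in P3, and the transcription factor Sox9 at 5.01 to 7.997 FPKM in P9, 9.81 to 15.3 FPKM in FFSS and 4.06 to 4.79 FPKM in P3. The collagen Col2a1 reached at most 1.06 FPKM in any library, and the lubricant Prg4 was at 0 to 0.0778 FPKM in P9, 1.77 to 41.9 FPKM in FFSS and 0.798 to 9.28 FPKM in P3. Among the FFSS libraries, replicate 1 stood closest to P3, with a Pearson r of 0.936 to 0.945 across genes against 0.890 to 0.918 for the other FFSS libraries. Since genes are not independent of each other, these r describe the libraries and test nothing. The summed level of 9 measured leukocyte markers was 5.14 to 5.66 FPKM in P9, 42.3 to 106 FPKM in FFSS and 9.60 to 11.1 FPKM in P3, of which Cd14 made up 39.9 to 94.3 FPKM in FFSS. Lyz2 was at 0 in P9, at 0.0562, 5.36 and 2.94 FPKM in FFSS and at 0.171 to 0.305 FPKM in P3, and Csf1r at 0.0329 to 0.218 FPKM in P9, at 0.0840, 3.17 and 2.08 FPKM in FFSS and at 0.0182 to 0.187 FPKM in P3, so that both were high in FFSS replicates 2 and 3 alone. Cd68 was at 0.414 to 0.848 FPKM in P9, at least 2.11 FPKM in FFSS and 0.533 to 0.873 FPKM in P3. The pan-leukocyte marker Ptprc was at most 0.0400 FPKM in any library, Adgre1 was at 0 in P9 and FFSS, and Cd3e was at 0 throughout. A sum over skeletal muscle markers was 4.31 to 7.05 FPKM in P9, 8.91 to 38.0 FPKM in FFSS and 5.52 to 7.08 FPKM in P3, and most of it was Tnnt3, with Myod1 at 0 in FFSS. Endothelial markers summed to under 1 FPKM and epithelial markers to at most 2.13 FPKM. Mitochondrial transcripts took 2.31 to 2.56% of fragments in P9, 2.96 to 3.75% in FFSS and 2.12 to 2.32% in P3. The part of these differences in the results below was not tested.

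Promoter windows, 250 bases before to 50 bases after the transcription start, were found in the RefSeq table of rat build GRCr8 for 28 of the 35 members. Zmat3, Rrm2b, Bax, Tnfrsf10b, Ddb2, Bbc3 and Tp53inp1 had none there. A match to the p53 decamer, the repeat of which a p53 response element is made, was present on either strand in 5 of the 28 genes (Aen, Ccng1, Ei24, Gadd45a and Sesn1), against 7.98% of all 33469 windows. The cAMP response element TGACGTCA was present in Btg2 and Plk2 and in 1.83% of all windows. The AP-1 site TGANTCA was present in Fas and Perp and in 7.33% of all windows, and the CArG box of serum response factor in no member and in 1.64% of all windows. These matches describe letters in a short window, and no match says nothing on the binding of a factor. Of the arrest genes that rose under shear, Gadd45b, Gadd45g, Btg1, Plk3 and Ccng2 had no match to any of these motifs. Sequences are shown 5′ to 3′ on the strand of the gene. The bases before the start are given for the 3 arrest genes with a cAMP response element or a p53 decamer. They are Btg2 (chr13:48087691-48087940, minus strand), Plk2 (chr2:43702286-43702535, plus strand) and Gadd45a (chr4:97486800-97487049, minus strand). Capitals mark the cAMP response element in Btg2 and Plk2, which starts 201 and 66 bases before the start, and the p53 decamer in Gadd45a, 48 bases before it.
Btg2: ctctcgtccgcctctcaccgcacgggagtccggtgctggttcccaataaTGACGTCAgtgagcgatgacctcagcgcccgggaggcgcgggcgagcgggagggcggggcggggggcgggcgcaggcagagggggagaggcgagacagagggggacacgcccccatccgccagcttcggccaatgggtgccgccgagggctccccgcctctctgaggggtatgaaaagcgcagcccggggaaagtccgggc
Plk2: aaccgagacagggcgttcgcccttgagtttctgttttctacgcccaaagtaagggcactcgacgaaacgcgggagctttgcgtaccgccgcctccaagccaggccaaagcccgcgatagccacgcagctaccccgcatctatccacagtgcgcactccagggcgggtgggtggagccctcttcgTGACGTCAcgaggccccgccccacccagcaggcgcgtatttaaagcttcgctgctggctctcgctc
Gadd45a: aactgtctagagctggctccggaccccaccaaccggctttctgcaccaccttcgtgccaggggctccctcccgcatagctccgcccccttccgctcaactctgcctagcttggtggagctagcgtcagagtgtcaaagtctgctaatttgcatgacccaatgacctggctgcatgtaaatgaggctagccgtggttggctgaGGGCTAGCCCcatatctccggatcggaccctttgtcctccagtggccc
The p53 decamers of the other 4 genes are shown, in capitals, with their flanking bases, to be read beside that of Gadd45a. They lie in Ccng1 (chr10:25685081-25685126, minus strand), Aen (chr1:142224485-142224530, plus strand), Ei24 (chr8:44699423-44699468, minus strand) and Sesn1 (chr20:46948529-46948574, plus strand).
Ccng1: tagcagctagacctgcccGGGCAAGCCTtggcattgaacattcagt
Aen: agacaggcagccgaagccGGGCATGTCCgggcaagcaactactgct
Ei24: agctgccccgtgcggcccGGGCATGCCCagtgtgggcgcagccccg
Sesn1: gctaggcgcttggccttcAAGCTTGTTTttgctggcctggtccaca

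At passage 9, Pmaip1, Fas, Zmat3 and Eda2r rose, 4 of the 32 members where 5.39% of all tested genes rose. Under shear, 14 members rose (11.4% of all tested genes), 8 of them among the 9 arrest genes, and Rrm2b fell (10.4%). The roles were set with earlier results of these data known. Counts by role, here and below, therefore describe the members and are no independent support for a role. Set directly against each other, P9 cells had 4 members higher (16.1% of all tested genes) and 12 lower (15.3%) than FFSS cells. Called members numbered 4 at passage 9 and 15 under shear in the fit over all 9 libraries, 15 and 25 without FFSS replicate 1, and 14 and 11 with only the groups compared, so that which model had more depended on the fit. The same turn was seen over all tested genes. With all 9 libraries, 5.39% were higher and 4.44% lower at passage 9, against 11.4% and 10.4% under shear. These shares were 9.53% and 7.78% against 19.3% and 19.7% without FFSS replicate 1. With only the groups compared they were 11.1% and 8.76% against 9.06% and 7.74%. In libraries made from bulk cultures, fewer cells that express a gene and less of its RNA per cell cannot be told apart.

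**Figure D1:**
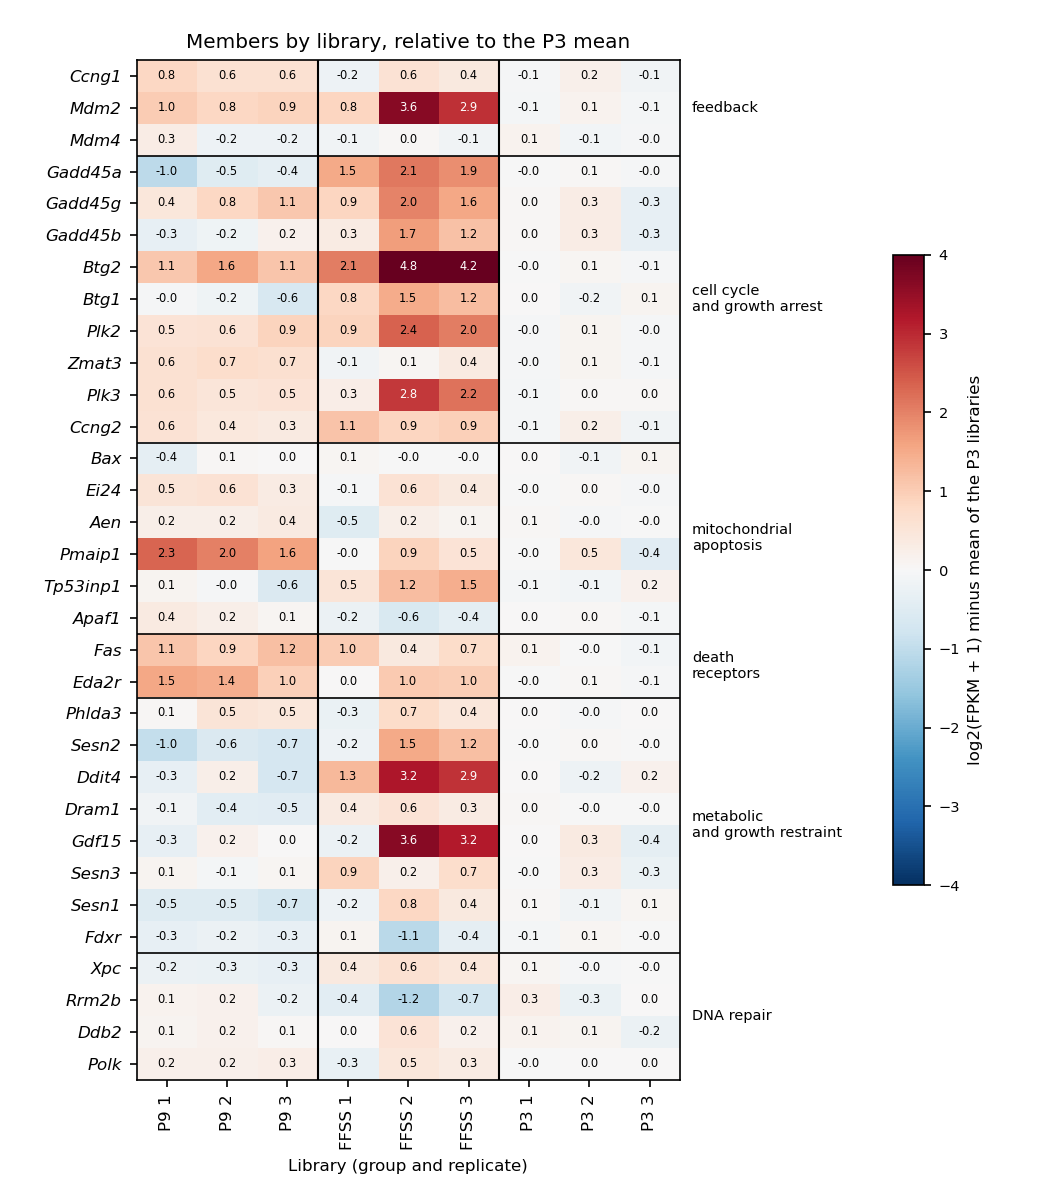
Level of the 32 tested members in each library (columns) as log2(FPKM + 1) minus the mean of the 3 P3 libraries, grouped by role (rows); red is higher than P3, blue is lower and the colour scale ends at 4. FFSS replicates 2 and 3 carry the darkest red cells (Btg2, Mdm2, Gdf15 and Ddit4), FFSS replicate 1 is paler for each of these, and in P9 the strongest red is Pmaip1.

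For P9 against P3, 4 of the 32 members were called higher, where 5.39% of all tested genes were, and 0 were called lower, where 4.44% of all tested genes were (limma, Benjamini-Hochberg adjusted p under 0.05 over all 13059 genes). At an unadjusted p under 0.05 the counts were 8 higher and 4 lower (12.1 and 11.1% of all genes), and limma-voom on the recovered fragments called 4 and 0. All 3 P9 libraries lay above all 3 P3 libraries for 16 members, against 20.9% of all tested genes, and below for 6, against 19.1%. The median log2 fold change was 0.17 over the members and -0.003 over all tested genes. Without P3 replicate 1, P3 replicate 3 or P9 replicate 2, each left out alone, 2 members were called higher. Without FFSS replicate 1, which is no P9 or P3 library and enters through the shared estimate of spread and the set of genes tested, 12 were called higher (9.53% of all genes) and 3 lower (7.78%), and with P9 and P3 fitted alone 11 higher (11.1%) and 3 lower (8.76%).

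For FFSS against P3, 14 of the 32 members were called higher, where 11.4% of all tested genes were, and 1 was called lower, where 10.4% were. All 3 FFSS libraries lay above all 3 P3 libraries for 14 members, against 20.1% of all tested genes, and below for 2, against 22.3%. The median log2 fold change was 0.54 over the members and -0.01 over all tested genes. The count of higher members was 7, 7 and 8 without P3 replicates 1, 2 and 3 in turn, 8 without FFSS replicate 3 and 22 without FFSS replicate 1 (19.3% of all genes), when 3 members were called lower (19.7%). With FFSS and P3 fitted alone it was 11 (9.06%), with 0 lower (7.74%). The call of the lower member, Rrm2b, was lost without any of 7 libraries, as given with its values below.

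The direct comparison of P9 with FFSS called 4 members higher, where 16.1% of all tested genes were, and 12 lower, where 15.3% were. All 3 P9 libraries lay above all 3 FFSS libraries for 5 members, against 22.2% of all tested genes, and below for 13, against 20%. The median log2 fold change was -0.54 over the members and 0.003 over all tested genes. Without P9 replicate 2 the higher count was 2, and without FFSS replicate 3 the lower count was 6. Without FFSS replicate 1 the counts were 5 (23.7%) and 16 (22%), and with P9 and FFSS fitted alone 2 (9.99%) and 10 (10.2%). Both comparisons with P3 use the same 3 P3 libraries, so only this contrast tests whether the models differ.

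**Figure D2:**
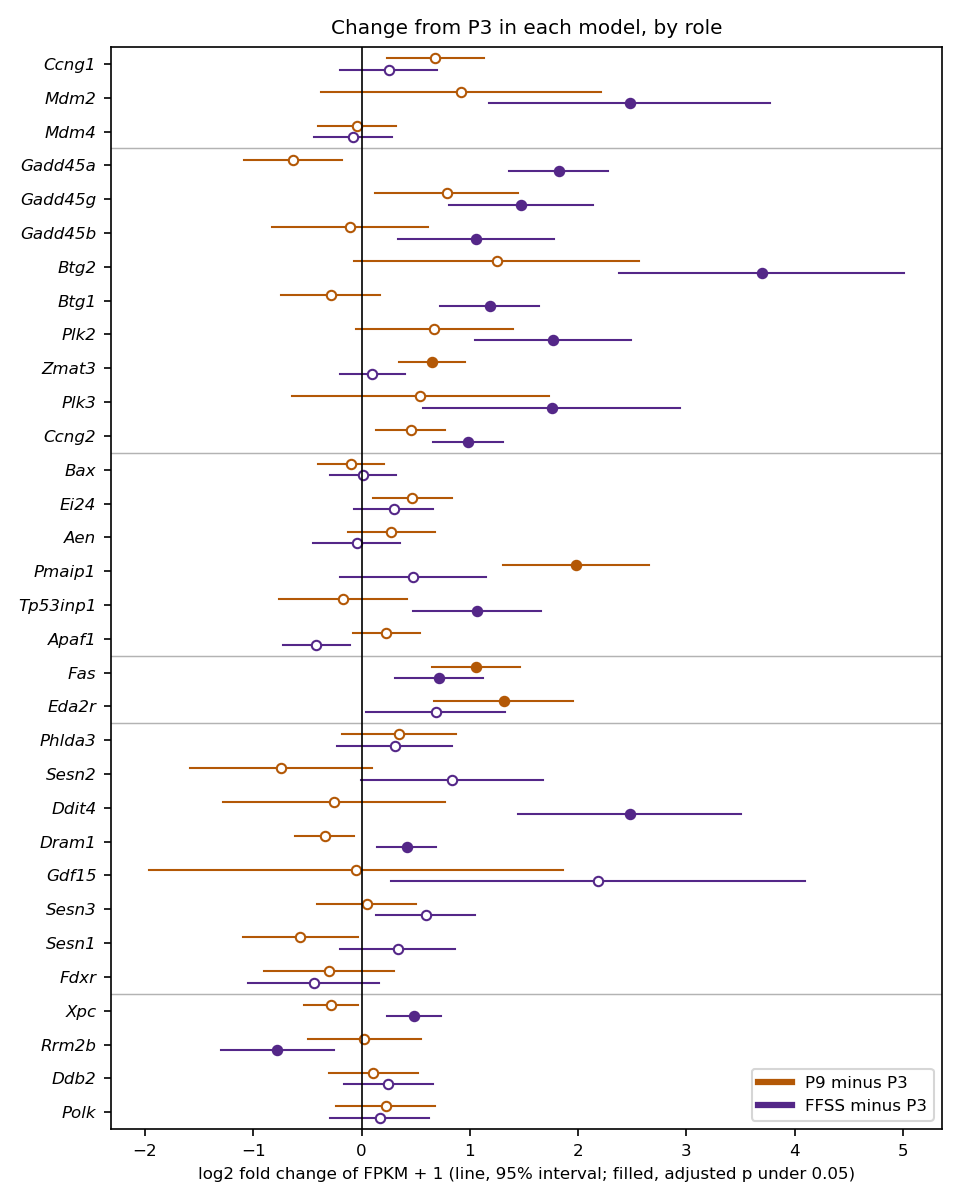
Log2 fold change of FPKM + 1 with its 95% interval for each tested member, P9 minus P3 (orange) above FFSS minus P3 (purple), with lines between roles and filled points where the adjusted p is under 0.05. The 8 filled FFSS points of the arrest genes lie at 0.99 to 3.70, whereas Pmaip1, Zmat3, Fas and Eda2r are the only filled P9 points.

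Cdkn1a, the cyclin-dependent kinase inhibitor p21 and the classical p53 target, was at 115, 139 and 151 FPKM in P9, 67.2, 284 and 202 FPKM in FFSS and 79.7, 96.7 and 64.4 FPKM in P3. The P9 libraries lay above P3, and FFSS replicate 1 lay within the P3 range while the other FFSS libraries lay above all others. Neither comparison of Cdkn1a with P3 passed the test (log2 fold change 0.75, adjusted p = 0.369 in P9; 0.98, adjusted p = 0.144 in FFSS), and without FFSS replicate 1 both did (adjusted p = 0.0279 in P9 and 0.000885 in FFSS). With P9 and P3 fitted alone, Cdkn1a was also called higher in P9 (adjusted p = 0.0224, limma). Cdkn2a, whose locus encodes the kinase inhibitor p16 and the Mdm2 inhibitor ARF, was at 12.7, 13.8 and 12.4 FPKM in P9, 2.85, 5.25 and 5.66 FPKM in FFSS and 6.65, 7.77 and 6.22 FPKM in P3. The groups did not overlap: P9 was highest and FFSS lowest. Cdkn2a rose in P9 against P3 (log2 fold change 0.83, adjusted p = 0.0337) and was higher in P9 than in FFSS (1.36, adjusted p = 0.00151). Its rise against P3 was lost without any single one of the 6 P9 and P3 libraries (adjusted p = 0.064 to 0.13) and with no filter on low values (0.063).

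Of the 3 feedback regulators, 1, Mdm2, rose under shear (11.4% of all tested genes). At passage 9, 0 were called (5.39% of all tested genes higher, 4.44% lower). Without FFSS replicate 1, 2 were called higher at passage 9 (9.53%) and 2 under shear (19.3%). With only the groups compared, 2 were called higher at passage 9 (11.1%) and 0 under shear (9.06%). Mdm2 (chr7:60719066-60743328 of build Rnor_6.0, minus strand) was at 43.2, 38.1 and 39.6 FPKM in P9, 38.3, 272 and 166 FPKM in FFSS and 19.8, 22.9 and 19.9 FPKM in P3. Every P9 and FFSS library lay above every P3 library, FFSS replicate 1 lay at the level of P9, and FFSS replicates 2 and 3 were far above it. The means were 40.3 ± 2.63 FPKM in P9, 159 ± 117 FPKM in FFSS and 20.9 ± 1.77 FPKM in P3 (SD, n = 3 each). The log2 fold change was 2.47 (SE 0.57, adjusted p = 0.0174, limma) in FFSS and 0.92 (SE 0.57, adjusted p = 0.394) in P9, and P9 minus FFSS was -1.56 (adjusted p = 0.0662). The FFSS call was lost without each of the 3 P3 libraries, without FFSS replicate 3 (adjusted p = 0.0527 to 0.0661) and with FFSS and P3 fitted alone (0.0501). Without FFSS replicate 1, Mdm2 was called higher in P9 than in P3 (adjusted p = 0.00814) and lower in P9 than in FFSS (5.6e-05). With P9 and P3 fitted alone, its difference between P9 and P3 was called as well (adjusted p = 0.0013).

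Ccng1, cyclin G1, a p53 target that recruits a phosphatase to Mdm2, did not pass the test in any comparison. It was at 136, 118 and 118 FPKM in P9, 66.1, 115 and 101 FPKM in FFSS and 73.9, 88.1 and 69.4 FPKM in P3. All P9 libraries lay above all others, FFSS replicate 1 lay below P3 and the other FFSS libraries lay above it. The log2 fold change was 0.68 (SE 0.20, adjusted p = 0.0653, limma) in P9 and 0.25 (SE 0.20, adjusted p = 0.386) in FFSS, and the P9 difference was called without FFSS replicate 1 (adjusted p = 0.00598) and without FFSS replicate 2 (0.0357), as well as with scaling by library totals and with P9 and P3 fitted alone (0.00787 to 0.0358). Mdm4, a relative of Mdm2 that masks the activating part of p53, averaged 7.73 ± 1.84 FPKM in P9, 7.43 ± 0.586 FPKM in FFSS and 7.90 ± 0.757 FPKM in P3 (SD, n = 3 each). Its groups overlapped, and the 95% intervals of its log2 fold changes ran from -0.41 to 0.32 in P9 and from -0.44 to 0.28 in FFSS.

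Of the genes that arrest or slow the cell cycle, 1 of 9, Zmat3, rose at passage 9 (5.39% of all tested genes) and 8 of 9 rose under shear (11.4%). With FFSS replicate 1 left out the counts were 6 higher (9.53% of all tested genes) and 1 lower (7.78%) at passage 9 and 8 higher (19.3%) under shear. With only the groups compared they were 5 higher (11.1%) and 1 lower (8.76%) at passage 9 and 6 higher (9.06%) under shear. Gadd45a, Gadd45b and Gadd45g encode small stress sensors that bind p21 and cell cycle kinases and activate stress kinase signalling. Gadd45a (chr4:97782512-97784842 of build Rnor_6.0, minus strand) was at 43.7, 65.3 and 70.8 FPKM in P9, 262, 394 and 333 FPKM in FFSS and 90.1, 95.4 and 88.9 FPKM in P3. FFSS was highest and P9 lowest, with no overlap between the 3 groups. Gadd45a rose by a log2 fold change of 1.82 in FFSS (SE 0.20, adjusted p = 0.00105, limma), had -0.63 in P9 (SE 0.20, adjusted p = 0.0901), and was lower in P9 than in FFSS by -2.45 (adjusted p = 7.63e-05). Without FFSS replicate 1, and with P9 and P3 fitted alone, the difference between P9 and P3 was called as well (adjusted p = 0.0406 and 0.0476).

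Gadd45g was at 113, 147 and 177 FPKM in P9, 151, 333 and 246 FPKM in FFSS and 85.3, 101 and 65.8 FPKM in P3. All P9 and FFSS libraries lay above P3, and P9 and FFSS overlapped. It rose in FFSS (log2 fold change 1.47, adjusted p = 0.0099, limma) and had 0.79 in P9 (adjusted p = 0.142). Without FFSS replicate 1, and with P9 and P3 fitted alone, the P9 difference was called (adjusted p = 0.038 and 0.0383). Gadd45b was at 72.0, 79.0 and 102 FPKM in P9, 113, 287 and 206 FPKM in FFSS and 92.0, 112 and 70.7 FPKM in P3. FFSS replicate 1 lay just above the highest P3 library, and P9 overlapped P3. Gadd45b rose in FFSS against P3 by 1.06 on the log2 scale (adjusted p = 0.0438), a call that was lost without any single one of 8 libraries, all but FFSS replicate 1 (adjusted p = 0.0552 to 0.14). Its difference between P9 and FFSS was -1.17 (adjusted p = 0.0231) and was lost without P9 replicates 1 or 2 or FFSS replicates 2 or 3 (0.0596 to 0.0765).

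Btg2, an antiproliferative protein that promotes the decay of mRNA through the CCR4-NOT complex, had the largest rise of any member. Btg2 (chr13:50913180-50916982 of build Rnor_6.0, minus strand) was at 18.3, 25.8 and 18.4 FPKM in P9, 36.6, 259 and 165 FPKM in FFSS and 8.05, 8.49 and 7.70 FPKM in P3. FFSS was highest, P9 came next and P3 was lowest, without overlap. Means were 20.8 ± 4.29 FPKM in P9, 154 ± 112 FPKM in FFSS and 8.08 ± 0.400 FPKM in P3 (SD, n = 3 each). The log2 fold change was 3.70 in FFSS (SE 0.58, adjusted p = 0.00433, limma) and 1.25 in P9 (SE 0.58, adjusted p = 0.241), and P9 minus FFSS was -2.45 (adjusted p = 0.013; 0.0526 without FFSS replicate 3). Without FFSS replicate 1, and with P9 and P3 fitted alone, the difference between P9 and P3 was called (adjusted p = 0.0031 and 0.00172). Its relative Btg1 was at 42.5, 38.5 and 27.6 FPKM in P9, 78.6, 124 and 104 FPKM in FFSS and 44.5, 39.1 and 47.6 FPKM in P3. Every FFSS library lay above every other library, and P9 overlapped P3. Btg1 rose by 1.18 in FFSS (adjusted p = 0.00598), had -0.28 in P9 (adjusted p = 0.457) and differed by -1.47 between P9 and FFSS (adjusted p = 0.00104).

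Plk2 and Plk3, polo-like kinases that respond to stress and restrain division, rose under shear with unequal certainty. Plk2 (chr2:41911131-41916901 of build Rnor_6.0, plus strand) was at 17.5, 18.1 and 22.4 FPKM in P9, 22.7, 64.5 and 51.0 FPKM in FFSS and 11.3, 12.5 and 11.3 FPKM in P3. P9 lay between FFSS and P3, without overlap. Its log2 fold change was 1.77 in FFSS (adjusted p = 0.0071, limma) and 0.67 in P9 (adjusted p = 0.251). Without FFSS replicate 1, and with P9 and P3 fitted alone, the P9 difference was called (adjusted p = 0.00939 and 0.00775). The difference between P9 and FFSS, -1.10 (adjusted p = 0.0297), was lost without any single P9 library, FFSS replicate 2 or FFSS replicate 3 (0.0502 to 0.101). Plk3 was at 11.2, 10.2 and 10.7 FPKM in P9, 8.65, 55.8 and 35.6 FPKM in FFSS and 6.64, 7.26 and 7.23 FPKM in P3. All FFSS libraries lay above P3, but FFSS replicate 1 lay below P9. Its rise in FFSS, 1.76 (adjusted p = 0.0428), was lost without any single library but FFSS replicate 1 (0.0596 to 0.136) and with limma-voom. The P9 difference of Plk3 was 0.54 (adjusted p = 0.598). That difference was called without FFSS replicate 1 (0.0454) and with P9 and P3 fitted alone (0.0059).

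Ccng2, a cyclin relative that slows the cycle and is also a target of FoxO factors, was at 7.74, 6.82 and 6.41 FPKM in P9, 11.9, 9.61 and 10.2 FPKM in FFSS and 4.52, 5.78 and 4.28 FPKM in P3. All FFSS libraries lay above P9 and all P9 libraries above P3, and here FFSS replicate 1 was the highest library. It rose by 0.99 in FFSS (adjusted p = 0.00307, limma) and had 0.45 in P9 (adjusted p = 0.0859; 0.043 without FFSS replicate 1). P9 was lower than FFSS by -0.53 (adjusted p = 0.0212; 0.0561 to 0.0676 without P9 replicate 2, P9 replicate 3 or FFSS replicate 3). Zmat3, an RNA-binding zinc finger protein that acts in growth suppression by p53 in mice, was at 25.2, 26.9 and 26.1 FPKM in P9, 14.8, 17.2 and 21.0 FPKM in FFSS and 15.7, 17.6 and 15.5 FPKM in P3. P9 lay above both other groups, and FFSS overlapped P3. Zmat3 (chr2:118721334-118745766 of build Rnor_6.0, minus strand) rose by 0.65 in P9 (SE 0.13, adjusted p = 0.0158), had 0.10 in FFSS (adjusted p = 0.619) and was higher in P9 than in FFSS by 0.55 (adjusted p = 0.0143; 0.0526 without P9 replicate 2). The rise against P3 was lost without P3 replicates 1 or 3 or P9 replicates 2 or 3 (0.0563 to 0.0782).

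**Figure D3:**
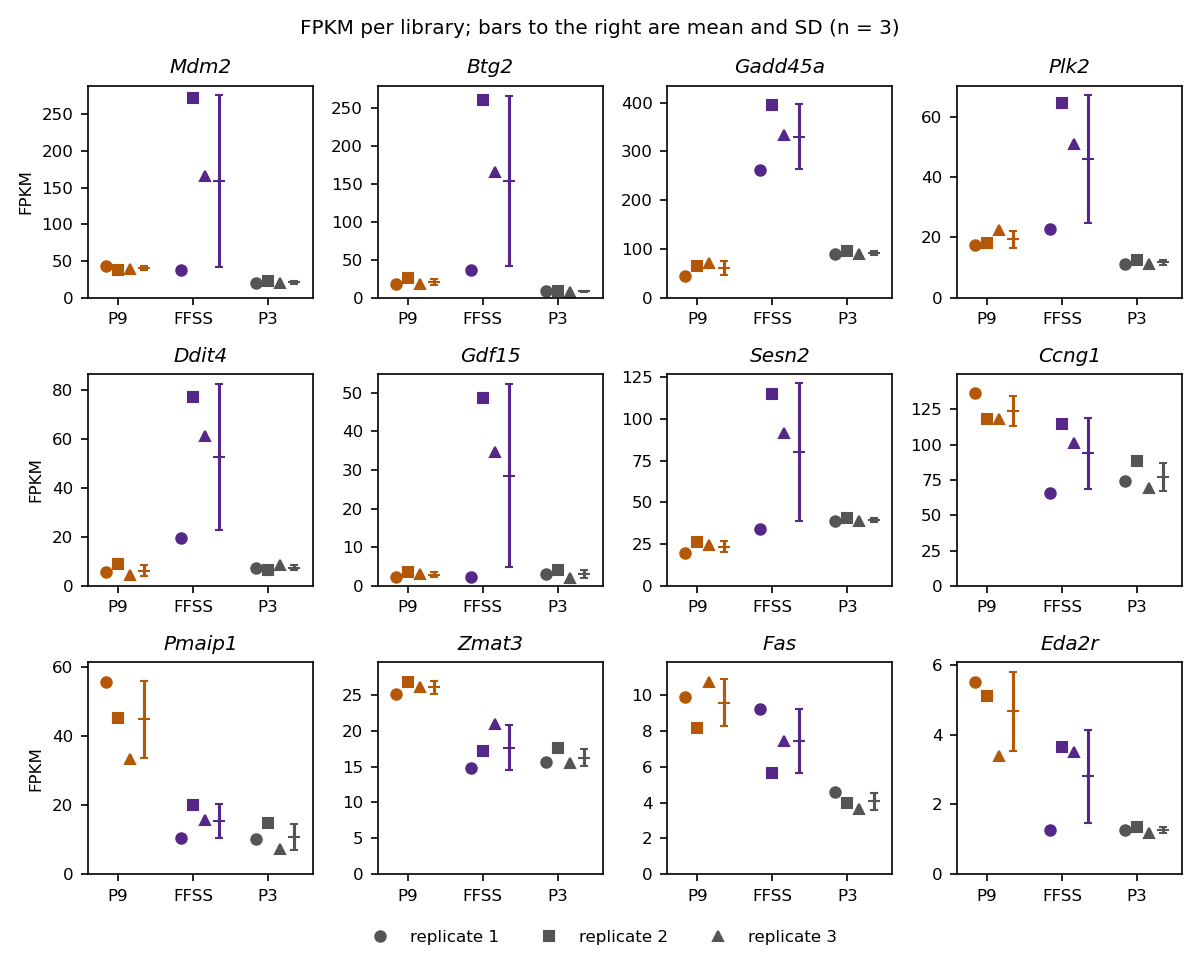
FPKM in each library of 12 members, with P9, FFSS and P3 from left to right, symbols for the replicate number and, at the right of each group, the mean and SD (n = 3). FFSS replicate 1 lies near the P9 or P3 points for Mdm2, Plk2, Gdf15, Sesn2 and Eda2r, whereas Pmaip1 (33.4 to 55.9 FPKM) and Zmat3 (25.2 to 26.9 FPKM) are highest in P9.

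Of the 6 tested members grouped under mitochondrial apoptosis, 1 rose at passage 9 (5.39% of all tested genes) and another 1 rose under shear (11.4%). The group is broad and takes in the nuclease Aen, the endoplasmic reticulum protein Ei24 and the autophagy-linked Tp53inp1. Pmaip1 encodes NOXA, a BH3-only protein that neutralises the survival protein MCL1. Pmaip1 (chr18:62174670-62181102 of build Rnor_6.0, plus strand) was at 55.9, 45.5 and 33.4 FPKM in P9, 10.3, 20.1 and 15.6 FPKM in FFSS and 10.2, 14.7 and 7.41 FPKM in P3. Every P9 library lay above every other library, and FFSS overlapped P3. Means were 44.9 ± 11.2 FPKM in P9, 15.3 ± 4.89 FPKM in FFSS and 10.8 ± 3.68 FPKM in P3 (SD, n = 3 each). Pmaip1 rose by 1.98 in P9 (SE 0.30, adjusted p = 0.00366, limma), had 0.47 in FFSS (SE 0.30, adjusted p = 0.275) and was higher in P9 than in FFSS by 1.51 (adjusted p = 0.00575).

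Tp53inp1, a nuclear and autophagy-linked protein that promotes death by p53, was at 14.5, 12.8 and 8.51 FPKM in P9, 19.2, 32.4 and 38.0 FPKM in FFSS and 12.6, 12.2 and 15.1 FPKM in P3. FFSS lay above both other groups, which overlapped, and among FFSS libraries replicate 3 was highest. It rose by 1.06 in FFSS (adjusted p = 0.0217, limma; 0.0603 to 0.078 without P3 replicates 1 or 2 or FFSS replicates 2 or 3) and differed by -1.23 between P9 and FFSS (adjusted p = 0.00804). Apaf1, the scaffold of the caspase-activating apoptosome, was at 7.66, 6.97 and 6.23 FPKM in P9, 4.74, 3.41 and 4.14 FPKM in FFSS and 5.88, 5.97 and 5.49 FPKM in P3. FFSS was lowest and P9 highest, without overlap. P9 was higher than FFSS by 0.65 (adjusted p = 0.00785), and the log2 fold change of FFSS against P3, -0.42, missed the threshold (adjusted p = 0.0575; 0.0149 without FFSS replicate 1 and 0.0394 with limma-voom).

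Bax, the pore-forming executioner of the mitochondrial route, averaged 67.4 ± 10.7 FPKM in P9, 72.6 ± 3.08 FPKM in FFSS and 71.9 ± 6.16 FPKM in P3 (SD, n = 3 each). The 95% intervals of its log2 fold change were -0.40 to 0.20 in P9 and -0.29 to 0.32 in FFSS. These intervals are for the difference of group means and rest on the spread between libraries. Aen, a nuclease that degrades DNA in apoptosis, averaged 30.5 ± 1.88 FPKM in P9, 24.8 ± 6.49 FPKM in FFSS and 25.0 ± 0.872 FPKM in P3. Ei24, a membrane protein of the endoplasmic reticulum, averaged 48.5 ± 4.55 FPKM in P9, 43.5 ± 9.61 FPKM in FFSS and 34.7 ± 1.06 FPKM in P3. For both genes all P9 libraries lay above P3 while FFSS replicate 1 lay below it, and neither passed the test (adjusted p = 0.415 for Aen and 0.111 for Ei24 in P9, limma). Ei24 was called higher in P9 (adjusted p = 0.0154) and in FFSS (0.012) without FFSS replicate 1. With P9 and P3 fitted alone, Ei24 was called higher in P9 as well (adjusted p = 0.0142).

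The death receptors Fas and Eda2r both rose at passage 9, where 5.39% of all tested genes rose. Fas, which starts the extrinsic route to apoptosis on binding its ligand, was at 9.88, 8.14 and 10.8 FPKM in P9, 9.22, 5.65 and 7.46 FPKM in FFSS and 4.58, 3.98 and 3.66 FPKM in P3. All P9 and FFSS libraries lay above P3, P9 and FFSS overlapped, and FFSS replicate 1 was the highest of its group. In the fit over all 9 libraries, Fas (chr1:252589785-252624790 of build Rnor_6.0, plus strand) was the only member called in both comparisons with P3. With only the groups compared, Btg2, Gadd45g and Plk2 were also called higher in both. Without FFSS replicate 1, so were these genes and Mdm2, Plk3, Ccng1, Ccng2, Ei24 and Eda2r. For Fas the log2 fold change was 1.06 in P9 (SE 0.18, adjusted p = 0.00623, limma) and 0.72 in FFSS (SE 0.18, adjusted p = 0.0226). The FFSS call was lost without each P3 library and without FFSS replicate 3 (0.0543 to 0.0812), and P9 minus FFSS was 0.34, with a 95% interval of -0.06 to 0.75 (adjusted p = 0.173; 0.0369 without FFSS replicate 1).

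Eda2r, the receptor of ectodysplasin A2, lies on chromosome X (66561286 to 66602506 of build Rnor_6.0, minus strand). It was at 5.53, 5.12 and 3.39 FPKM in P9, 1.27, 3.65 and 3.51 FPKM in FFSS and 1.25, 1.34 and 1.18 FPKM in P3. P9 lay above P3, FFSS replicate 1 lay within the P3 range, and the other FFSS libraries lay above the lowest P9 library. Eda2r rose by 1.31 in P9 (SE 0.28, adjusted p = 0.0196, limma), a call that was lost without any P3 library, P9 replicate 1 or P9 replicate 2 (0.0577 to 0.0901). In FFSS the log2 fold change was 0.68 (adjusted p = 0.113; 0.0036 without FFSS replicate 1).

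Of the 8 tested members that restrain growth or alter metabolism, 0 were called at passage 9 (5.39% of all tested genes higher, 4.44% lower). Under shear 2 rose (11.4%), and 4 were lower in P9 than in FFSS (15.3%). Leaving out FFSS replicate 1, 2 were called lower at passage 9 (7.78%). Under shear 6 were then called higher (19.3%) and 1 lower (19.7%). With only the groups compared, 2 were called lower at passage 9 (8.76%) and 2 higher under shear (9.06%). Ddit4 encodes REDD1, an inhibitor of the growth kinase complex mTORC1 that is also induced by hypoxia and glucocorticoids. Ddit4 (chr20:29509289-29511382 of build Rnor_6.0, minus strand) was at 5.63, 8.85 and 4.25 FPKM in P9, 19.4, 77.4 and 61.3 FPKM in FFSS and 7.42, 6.28 and 8.47 FPKM in P3. Every FFSS library lay above every other library, and P9 overlapped P3. Ddit4 rose by 2.48 in FFSS (SE 0.45, adjusted p = 0.00743, limma), had -0.25 in P9 (adjusted p = 0.799) and differed by -2.73 between P9 and FFSS (adjusted p = 0.00261). Dram1, a lysosomal protein that promotes autophagy, was at 18.5, 15.0 and 14.5 FPKM in P9, 26.6, 30.5 and 25.8 FPKM in FFSS and 21.1, 20.2 and 20.0 FPKM in P3. No library of 1 group reached another group, FFSS being highest and P9 lowest. Its rise in FFSS was 0.42 (adjusted p = 0.0392; 0.0593 to 0.116 without any P3 library, P9 replicate 2, FFSS replicate 2 or FFSS replicate 3), and P9 minus FFSS was -0.76 (adjusted p = 0.00211).

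The sestrins restrain mTORC1 when amino acids are short and protect against oxidants. Sesn2 was at 19.7, 26.0 and 24.2 FPKM in P9, 34.2, 115 and 91.3 FPKM in FFSS and 39.0, 40.6 and 38.6 FPKM in P3. P9 lay below both other groups, FFSS replicate 1 lay below P3 and the other FFSS libraries lay far above it. P9 minus FFSS was -1.58 (adjusted p = 0.0124, limma; 0.0508 without FFSS replicate 3). Neither group differed from P3 past the threshold (log2 fold change -0.74, adjusted p = 0.277 in P9; 0.84, adjusted p = 0.134 in FFSS), and without FFSS replicate 1 both did (0.00574 in P9 and 0.000316 in FFSS). With P9 and P3 fitted alone, Sesn2 was also called lower in P9 (adjusted p = 0.00511). Sesn1 was at 3.00, 2.98 and 2.51 FPKM in P9, 3.90, 8.99 and 6.48 FPKM in FFSS and 4.87, 4.16 and 5.01 FPKM in P3. P9 was again lowest, and FFSS replicate 1 lay below P3. P9 minus FFSS was -0.90 (adjusted p = 0.0189; 0.0595 to 0.0628 without P9 replicate 3 or FFSS replicate 3), and the differences from P3 did not pass (adjusted p = 0.185 in P9 and 0.328 in FFSS; 0.0273 and 0.017 without FFSS replicate 1). With P9 and P3 fitted alone, Sesn1 was also called lower in P9 (adjusted p = 0.0152). Sesn3, also a target of FoxO factors, averaged 7.32 ± 0.571 FPKM in P9, 11.4 ± 2.82 FPKM in FFSS and 7.14 ± 1.60 FPKM in P3. It was not called (0.59 in FFSS, adjusted p = 0.0653; 0.0223 without FFSS replicate 2).

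Gdf15, a secreted stress hormone of the TGF-beta family, showed the widest split among the FFSS libraries on the log2 scale. It was at 2.17, 3.45 and 2.99 FPKM in P9, 2.35, 48.7 and 34.6 FPKM in FFSS and 3.05, 4.06 and 2.08 FPKM in P3. FFSS replicate 1 lay within the range of P3 and of P9, and the other FFSS libraries lay far above all libraries. The log2 fold change in FFSS was 2.18 (SE 0.84, adjusted p = 0.0951, limma; 6.33e-05 without FFSS replicate 1) and in P9 -0.05 (adjusted p = 0.981). Phlda3, an inhibitor of the survival kinase AKT, averaged 185 ± 30.9 FPKM in P9, 185 ± 59.9 FPKM in FFSS and 144 ± 2.83 FPKM in P3 and was not called (adjusted p = 0.435 in P9 and 0.374 in FFSS; 0.0191 in FFSS without FFSS replicate 1). Fdxr, a mitochondrial reductase of iron-sulfur and steroid metabolism, averaged 1.27 ± 0.0769 FPKM in P9, 1.17 ± 0.831 FPKM in FFSS and 1.80 ± 0.161 FPKM in P3. It was not called (adjusted p = 0.56 in P9 and 0.256 in FFSS; 0.0339, lower, in FFSS without FFSS replicate 1).

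Of the 4 DNA repair members, Xpc rose (11.4% of all tested genes) and Rrm2b fell (10.4%) under shear. At passage 9, 0 were called (5.39% of all tested genes higher, 4.44% lower). Xpc, which recognises bulky DNA lesions, was at 5.91, 5.78 and 5.55 FPKM in P9, 9.79, 11.6 and 10.2 FPKM in FFSS and 7.61, 6.99 and 7.05 FPKM in P3. The groups did not overlap, with FFSS highest and P9 lowest. Its log2 fold change was 0.48 in FFSS (adjusted p = 0.0159, limma; 0.0537 to 0.0663 without any P3 library), and P9 minus FFSS was -0.77 (adjusted p = 0.00124). Rrm2b, the p53-induced subunit of ribonucleotide reductase, was at 4.16, 4.38 and 2.99 FPKM in P9, 2.51, 1.09 and 1.85 FPKM in FFSS and 4.63, 2.90 and 3.79 FPKM in P3. FFSS lay below both other groups. Rrm2b fell by 0.78 on the log2 scale in FFSS (adjusted p = 0.0416), which was lost without any P3 library, P9 replicates 1 or 2 or FFSS replicates 2 or 3 (0.0544 to 0.148) and with limma-voom. P9 minus FFSS was 0.80 (adjusted p = 0.0281; 0.0678 to 0.0939 without P9 replicates 1 or 2 or FFSS replicates 2 or 3). Ddb2, a damage sensor of nucleotide excision repair, averaged 2.34 ± 0.140 FPKM in P9, 2.73 ± 0.730 FPKM in FFSS and 2.12 ± 0.433 FPKM in P3. Polk, a polymerase that copies past lesions, averaged 2.16 ± 0.0773 FPKM in P9, 2.12 ± 0.810 FPKM in FFSS and 1.71 ± 0.0334 FPKM in P3. Neither was called, and Polk was called higher in FFSS without FFSS replicate 1 (adjusted p = 0.0446).

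Taken singly, the FFSS libraries ranked alike for most members. FFSS replicate 1 was lowest and FFSS replicate 2 highest of the group in 22 of the 32 members, against 28.2% of all tested genes, and FFSS replicate 3 lay between them in 28, against 58.2%. The median log2 difference from the P3 mean over the members was 0.09 for FFSS replicate 1, 0.77 for FFSS replicate 2 and 0.62 for FFSS replicate 3, whereas over all tested genes it was -0.01, -0.02 and -0.02 in the same order. In 11 members (Aen, Ccng1, Ddb2, Eda2r, Ei24, Gdf15, Phlda3, Pmaip1, Polk, Sesn1 and Sesn2) FFSS replicates 2 and 3 lay above all P3 libraries and FFSS replicate 1 did not, as in 12.0% of all tested genes. In 4 members (Ccng2, Fas, Fdxr and Sesn3) FFSS replicate 1 was the highest of its group and above all P3 libraries, as in 20.3% of all tested genes. The median SD of a member's log2 value was 0.185 in P9, 0.412 in FFSS and 0.116 in P3, and that of all tested genes was 0.175, 0.268 and 0.110 in the same order. Without FFSS replicate 1, all 14 members called higher in FFSS were still called, and Ccng1, Eda2r, Ei24, Gdf15, Phlda3, Polk, Sesn1 and Sesn2 were added.

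**Figure D4:**
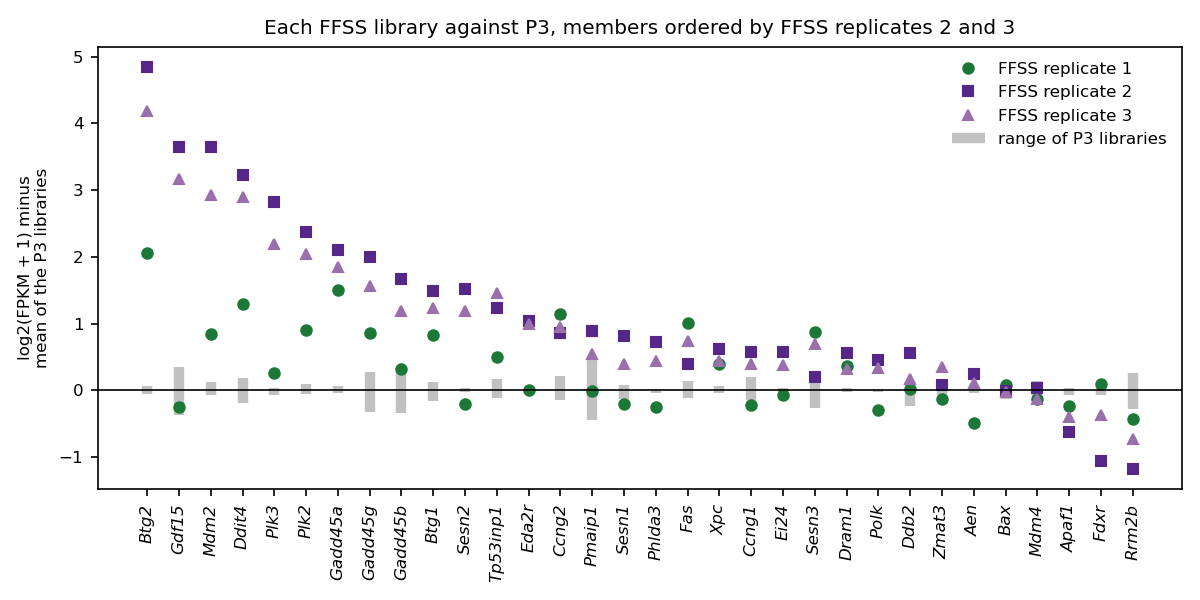
Each FFSS library minus the P3 mean, as log2(FPKM + 1), for the 32 tested members ordered by the mean of FFSS replicates 2 and 3; grey bars span the 3 P3 libraries. FFSS replicate 1 (green circles) lies below the purple symbols for most members on the left and within or below the grey bar for Gdf15, Sesn2 and Ccng1.

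Genes around the members were counted from lists chosen by function, with earlier results of these data known. The lists share some genes, so their counts are not independent. Ppm1d is a regulator and an other p53 target, and Ier3 an other p53 target and an immediate early gene. Bcl2l11 is in the apoptosis and FoxO lists. Shares of each list are to be read beside those of all tested genes, 5.39% higher and 4.44% lower in P9 and 11.4% higher and 10.4% lower in FFSS. Of 23 tested regulators of p53, 1 rose at passage 9 (Cdkn2a, 4.35%), and under shear 3 rose (13%) and 4 fell (17.4%), with a median log2 fold change of -0.12. Npm1, a nucleolar protein that stabilises ARF, was at 241, 217 and 201 FPKM in P9, 167, 109 and 122 FPKM in FFSS and 229, 241 and 242 FPKM in P3. FFSS lay below all other libraries, and Npm1 fell by 0.86 on the log2 scale (adjusted p = 0.00769, limma). Ppm1d, the phosphatase WIP1 that switches off p53 and is itself a p53 target, was at 4.21, 4.91 and 5.10 FPKM in P9, 5.68, 18.6 and 14.0 FPKM in FFSS and 4.16, 4.74 and 4.77 FPKM in P3. FFSS lay above all other libraries, FFSS replicate 1 by little. Its rise of 1.17 (adjusted p = 0.036) was lost without any P3 library, P9 replicates 2 or 3 or FFSS replicates 2 or 3 (0.0539 to 0.118).

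Among 42 other tested p53 targets, 4 rose (9.52%) and 3 fell (7.14%) at passage 9, and 7 rose (16.7%) and 5 fell (11.9%) under shear, with a median log2 fold change of 0.22 in P9 and 0.06 in FFSS. Ccnd1, cyclin D1, which drives entry into the cycle, was at 199.8, 219 and 252 FPKM in P9, 48.8, 55.6 and 51.8 FPKM in FFSS and 135, 128 and 141 FPKM in P3. The groups did not overlap: Ccnd1 rose by 0.72 in P9 (adjusted p = 0.00465, limma) and fell by 1.35 on the log2 scale in FFSS (adjusted p = 0.000361). Lif, a cytokine, rose by 2.41 in FFSS (adjusted p = 0.00327). Of 24 tested genes of the mitochondrial apoptosis machinery, 2 rose (8.33%) and 0 fell at passage 9, and 6 rose (25%) and 2 fell (8.33%) under shear. Bcl2l11, the BH3-only protein BIM, rose by 1.36 in FFSS (adjusted p = 0.00411), and Birc3, an inhibitor of apoptosis, rose by 1.85 (adjusted p = 0.0044).

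Lists of other stress responses were counted because several members are also targets of their factors. Of 19 tested immediate early genes, 16 rose under shear and 0 fell, with a median log2 fold change of 2.15, whereas at passage 9 1 rose and 3 fell. Fos, a subunit of AP-1, was at 3.09, 5.53 and 3.23 FPKM in P9, 154, 302 and 245 FPKM in FFSS and 3.37, 3.83 and 3.50 FPKM in P3. Every FFSS library, replicate 1 included, lay far above every other library, and Fos rose by 5.63 (adjusted p = 8.8e-06, limma). Of 17 tested FoxO targets, 11 rose and 1 fell under shear, with a median of 0.74, and 2 rose and 1 fell at passage 9. Irs2, an adaptor of insulin signalling, rose by 1.22 in FFSS (adjusted p = 0.000594) and by 0.79 in P9 (adjusted p = 0.00324). Of 19 tested genes of the ATF4 stress response, 2 rose and 9 fell under shear and 0 rose and 6 fell at passage 9, with medians of -0.36 in FFSS and -0.66 in P9. Psat1, an enzyme of serine synthesis, fell by 1.24 on the log2 scale in FFSS (adjusted p = 0.000827), and Slc7a5, an amino acid transporter, fell by 1.30 in P9 (adjusted p = 0.000221). The part of any of these factors in the members' changes was not tested.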

How the data were processed

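Polyadenylated RNA of 9 libraries was sequenced, 3 each of P9, FFSS and P3. The authors aligned with HISAT2 2.0.5, counted with featureCounts 1.5.0-p3 and used build Rnor_6.0, per the submitters' processing notes; the strandedness of the counting is not given in the sources used here, so a gene and an antisense partner cannot be told apart. The authors deposited FPKM values, not counts, per the file headers. In every library 100% of values were whole multiples (within 0.01) of what 1 fragment is worth, and that worth matched median-of-ratios scaling in place of plain totals, which deviated by up to 5.18%. The recovered totals were 13264930 to 15323790 fragments per library, and 1 fragment on a 1-kilobase gene is 0.0619 to 0.0733 FPKM; these limits cover counting error only.

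Of 34267 genes, the 13059 that reached 1 FPKM in 3 or more libraries were tested with limma 3.58.1 (R 4.3.3) on log2(FPKM + 1), as group means over all 9 libraries with a trend in the spread, two-sided, Benjamini-Hochberg adjusted over all tested genes and called under 0.05. An adjusted p comes from that test unless its sentence names another setting (a library left out, only the groups compared, limma-voom and the like), which was refitted with limma in the same way. Fold changes are on the log2(FPKM + 1) scale, which understates the change of low genes. The limma script was tested on simulated data before use. Members, roles and lists were chosen with earlier results of these data known. Named were all members, each called member with its value in every library, Mdm2, Cdkn1a and Cdkn2a, and, of the other lists, called genes among the 4 with the smallest adjusted p; another gene of that rule is not reported here. Alternatives were another pseudocount (0.1), no filter, a filter of at least 5 FPKM, library totals, limma-voom on recovered fragments, only the groups compared, the replicate block and each library left out. Promoters are from RefSeq, build GRCr8, whose coordinates were not mixed with Rnor_6.0. Tables were made with Python 3.11.15, pandas 2.3.3 and NumPy 2.4.6, and figures with matplotlib 3.10.9.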

Additional observations from a re-analysis of the deposited data

Results flagged for a closer look

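A row without a gene symbol carried a signal outside the members. Its deposited description names Bcl-2-binding component 3, the name of the protein PUMA, which Bbc3 encodes, and it lies on chromosome 1 (78264147 to 78268161 of build Rnor_6.0, plus strand). It was picked out after its values were seen, is not counted among the members, and that it is Bbc3 rests on that description alone. It was at 0.913, 1.72 and 1.37 FPKM in P9, 3.00, 13.4 and 9.08 FPKM in FFSS and 1.94, 1.66 and 1.65 FPKM in P3. Every FFSS library lay above every other library, with FFSS replicate 1 lowest of its group. The means were 1.33 ± 0.402 FPKM in P9, 8.49 ± 5.22 FPKM in FFSS and 1.75 ± 0.165 FPKM in P3 (SD, n = 3 each), and the FFSS level above that of the P3 controls is what singled the row out. The log2 fold change was 1.60 in FFSS (SE 0.40, adjusted p = 0.0229, limma) and -0.25 in P9 (adjusted p = 0.773), and P9 minus FFSS was -1.85 (adjusted p = 0.00855). Since the FFSS values singled the row out, the tests that use them are no independent support.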

How the results depend on the processing

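Counts of called members are given as higher and lower. For P9 minus P3 they were 4 and 0, 11 and 3 with only the groups compared, and 2 to 12 and 0 to 3 with each library left out in turn. For FFSS minus P3 they were 14 and 1, with 0 lower under no filter, under a filter of at least 5 FPKM and with only the groups compared, and 7 to 22 and 0 to 3 with each library left out. For P9 minus FFSS they were 4 and 12, with 2 higher when only the groups were compared, and 2 to 5 and 6 to 16 with each library left out. No other setting moved a count by over 1.5 times; the cause of the moves was not tested. With the replicate block the counts were 4 and 0, 13 and 1, and 4 and 12 in the same order of comparisons. Libraries with the same number correlated at -0.0408 to 0.0331 in their deviations from the group means, and 0 of the 9 correlated best with their own number, so the numbers do not pair them. Calls kept under every setting were Pmaip1 and Fas in P9 against P3, and Ccng2, Btg1, Btg2, Plk2, Ddit4, Gadd45a and Gadd45g in FFSS against P3. No called value reversed. Other calls were lost with no filter or with only the groups compared at adjusted p of 0.0501 to 0.0931 (Mdm2, Gadd45b, Plk2, Plk3, Rrm2b, Sesn1 and Zmat3), those of Plk3 and Rrm2b in FFSS against P3 also with limma-voom (0.0556 and 0.0557); Dram1 in FFSS was lost with the replicate block (0.0672), which changed no other call of a member. Under a filter of at least 5 FPKM, Eda2r, Rrm2b, Gdf15, Ddb2, Polk and Fdxr were not tested. With library totals the median log2 fold change of all genes in P9 minus P3 was 0.04, against -0.003, and 61.3% of calls were higher, against 54.8%. The lowest member, Fdxr, averaged 1.41 FPKM, where few fragments limit the precision.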
